A study of Rattus norvegicus with 13 samples.

Results

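The Hox genes encode homeodomain transcription factors that sit in 4 clusters, named A to D, and carry a paralogue number that gives their place along the cluster. The members described here were the genes with a probe set annotated to a single symbol of the form Hoxa to Hoxd followed by a number. There were 22 such genes among the 14506 genes with a probe set of their own, out of 39 Hox cluster genes in the RefSeq gene table of the rat. Each of the 22 had 1 probe set, so no choice between probe sets was needed. Cluster A gave 5 of its 11 genes, cluster B 7 of 10, cluster C 4 of 9 and cluster D 6 of 9. The other 17 genes were not analysed here.

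The samples were brains without the cerebellum of male rats of the inbred Fischer F344 strain, aged 15 months. In the control group (7 arrays) the dams had been fed a control diet, and in the fructose group (6 arrays) a diet high in fructose, in both cases through gestation and lactation. All offspring received chow from weaning on day 20, so the maternal diet was the only labelled difference between the groups. The labels name no litter and do not say whether each sample was a separate animal, so p-values reflect how these samples spread, which may be technical. Expression was measured on an Affymetrix array as log2 signal, on which a difference of 1 is a doubling.

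In the embryo, Hox genes are switched on in overlapping domains along the head-to-tail axis, and genes with low paralogue numbers reach furthest forward. The neural domains of the lowest numbers end at the boundaries of hindbrain segments, those of higher numbers lie in the spinal cord, and the forebrain and midbrain form largely outside them. The labels name the brain without the cerebellum and do not say how much brainstem was taken. In such bulk samples, fewer cells of a type and less RNA per cell cannot be told apart.

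The arrays were alike over all genes. The median log2 signal per array ran from 7.99 to 8.07 and the correlation between pairs of arrays from 0.985 to 0.998, with 0 identical pairs. Snap25, a presynaptic protein of neurons, ran from 13.2 to 13.4. Gabra6, a receptor subunit of cerebellar granule cells, ran from 5.41 to 6.01. The spread of values within an array, taken as the interquartile range, was narrowest in control replicates 2 (2.15) and 1 (2.19), followed by fructose replicate 8 (2.26). It was 2.32 to 2.5 in the other arrays.

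The Hox genes lay above the median of a set of genes with little target RNA, and 13 of 22 lay below its 95th percentile. The table has no detection p-values, so 1093 olfactory, taste and trace amine receptor genes, which act chiefly in sensory epithelia, served as a dim reference. Their median signal was 5.51 and their 95th percentile 6.82. Of all genes, 11008 (75.9%) had a mean above 6.82. Of the 22 Hox genes, 9 did and 13 did not, and 0 reached the median of all genes, 8.02. The split depends on the threshold, as 14 of 22 lay above the 90th percentile of the reference, 6.58, and 3 above the 99th, 7.48. The Hox means ran from 5.56 for Hoxc9 to 7.81 for Hoxb3, with a median of 6.68. Probe sets differ in affinity, so a position in this distribution does not compare RNA amounts between genes, and no Hox probe set is compared here with another. Near the threshold, Hoxb2 (6.91) and Hoxa4 (6.96) lay just above it, and Hoxd3 (6.75) and Hoxc12 (6.69) just below it.

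Of paralogues 1 to 4, which mark the hindbrain in the embryo, 5 of 9 measured genes lay above the reference, with a median level of 6.91. Hoxd1, the only measured gene of the first paralogue group, ran from 7.23 through a median of 7.53 to 7.76 in the control arrays. It ran from 7.32 through 7.54 to 7.84 in the fructose arrays. Hoxb2, which acts in hindbrain segments and in facial motor neuron development, ran from 6.60 through 6.84 to 7.27 in control and from 6.79 through 6.91 to 7.02 in fructose. The control arrays of Hoxb2 spanned the whole range of the fructose arrays, and only 8 of 13 arrays lay above their own reference.

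Hoxb3 ran from 7.66 through 7.76 to 8.11 in control and from 7.68 through 7.84 to 7.94 in fructose. Hoxb4 ran from 7.50 through 7.59 to 7.83 in control and from 7.48 through 7.65 to 7.77 in fructose. Hoxa4 ran from 6.85 through 6.96 to 7.10 in control and from 6.88 through 6.93 to 7.08 in fructose. All 3 genes, whose embryonic domains end in the posterior hindbrain, lay above the reference of their own array in 13 of 13 arrays, and their groups overlapped throughout. Hoxd1, Hoxb4 and Hoxb3 were the 3 Hox genes above the 99th percentile of the reference, 7.48. Hoxa2, the only Hox gene of the second hindbrain segment, lay below the reference, at 6.03 ± 0.20 (SD, n = 13), as did Hoxd3, Hoxc4 and Hoxd4. In the RefSeq table the spans of Hoxa4 and Hoxa5 overlap that of Hoxa3, and the spans of Hoxc4 and Hoxc5 overlap that of Hoxc6. Probe positions were not at hand, so whether these probe sets also detect Hoxa3 or Hoxc6 transcripts was not tested.

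Of paralogues 5 to 8, which pattern the level of the neck and trunk, 2 of 5 lay above the reference. Hoxa7 ran from 6.79 through 7.07 to 7.44 in control and from 6.94 through 7.08 to 7.36 in fructose. Hoxb7 ran from 7.002 through 7.11 to 7.37 in control and from 7.01 through 7.08 to 7.20 in fructose. Hoxa7 was above the reference of its own array in 12 of 13 arrays and Hoxb7 in 13. Of paralogues 9 to 13, which act in the lower spinal cord, limbs and urogenital tract, 2 of 8 lay above it.

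Hoxd9 ran from 7.01 through 7.07 to 7.31 in control and from 6.96 through 7.14 to 7.28 in fructose. Hoxd13, known for its role in the digits, ran from 6.79 through 7.03 to 7.30 in control and from 6.86 through 7.02 to 7.20 in fructose. It lay above the reference in 11 of 13 arrays. The share above the reference was thus 5 of 9, 2 of 5 and 2 of 8 in the 3 ranges of paralogues, and genes of the most posterior range were among those above it. Over single arrays, the 13 genes below the reference passed it in at most 2 arrays (Hoxb8), 1 array (Hoxd4 and Hoxc12) or 0.

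**Figure D1:**
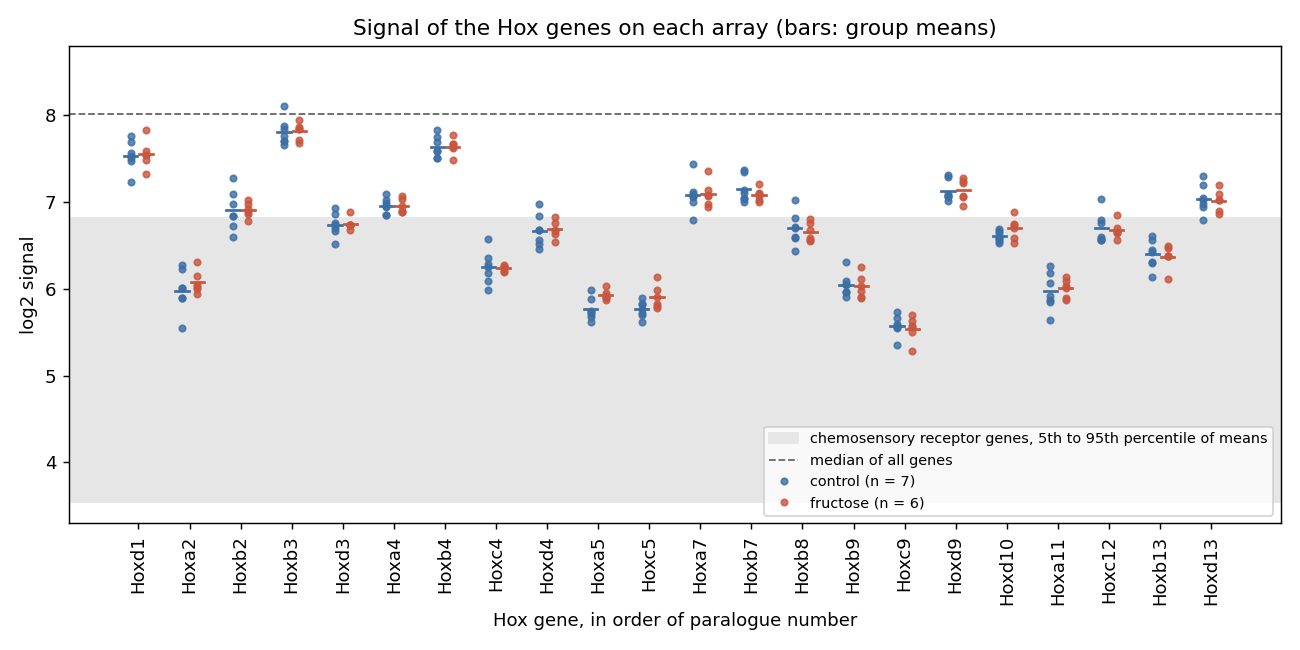
Log2 signal of the 22 Hox genes, ordered by paralogue number, with 1 point per array (7 control, 6 fructose), the dim reference and the median of all genes as lines. Of the 22 genes, 9 have a mean above the 95th percentile of the receptor genes (6.82), 0 above the median of all genes (8.02), and the points of both diets overlap in every gene.

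The Hox genes varied together from array to array. Over the 36 pairs of the 9 genes above the reference, the median Pearson correlation across 13 arrays was 0.67, and 88.9% of pairs were over 0.5. The median was 0.36 over the 78 pairs of the 13 genes below it, 0.15 over pairs of receptor genes and 0.015 over pairs of all genes. Every pair shares the same 13 arrays and their normalization, so these values are descriptions. The receptor genes (median signal 5.51) and all genes (8.02) differ in level from the 9 Hox genes, whose means ran from 6.91 to 7.81. No set of genes matched in signal was compared, so these medians do not show a trait particular to Hox genes. Among genes above the reference, the highest correlation was 0.87 between Hoxb3 and Hoxb4, neighbours in cluster B, and the lowest was 0.23. Hoxb3 and Hoxd9, from different clusters and paralogue ranges, reached 0.86, and Hoxa7 and Hoxd13 0.84.

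The median by paralogue number was 0.59 for numbers 1 to 4, 0.40 for 5 to 8 and 0.29 for 9 to 13. These ranges differ in how many genes lay above the reference (5 of 9, 2 of 5 and 2 of 8), so the medians do not compare paralogue numbers alone. Among genes above it, pairs of numbers 1 to 4 ran from 0.33 to 0.87. Hoxa7 with Hoxb7 had 0.68 and Hoxd9 with Hoxd13 had 0.72. By position the median was 0.51 for the 52 pairs within a cluster and 0.47 for the 179 pairs between clusters. Clustermates were thus little more alike than genes of different clusters. Hoxc9, Hoxd10 and Hoxc5 stood apart from the rest, with median correlations to the other Hox genes of -0.07, 0.06 and 0.10.

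The arrays with high Hox signal were fructose replicate 8 and control replicates 1 and 2. In fructose replicate 8, 21 of 22 Hox genes were above their own mean, and in control replicates 1 and 2 it was 19 of 22 each. Control replicates 5, 7, 8 and 3 were low, with 2, 3, 3 and 4 genes above their mean. The high arrays came from both diets.

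**Figure D2:**
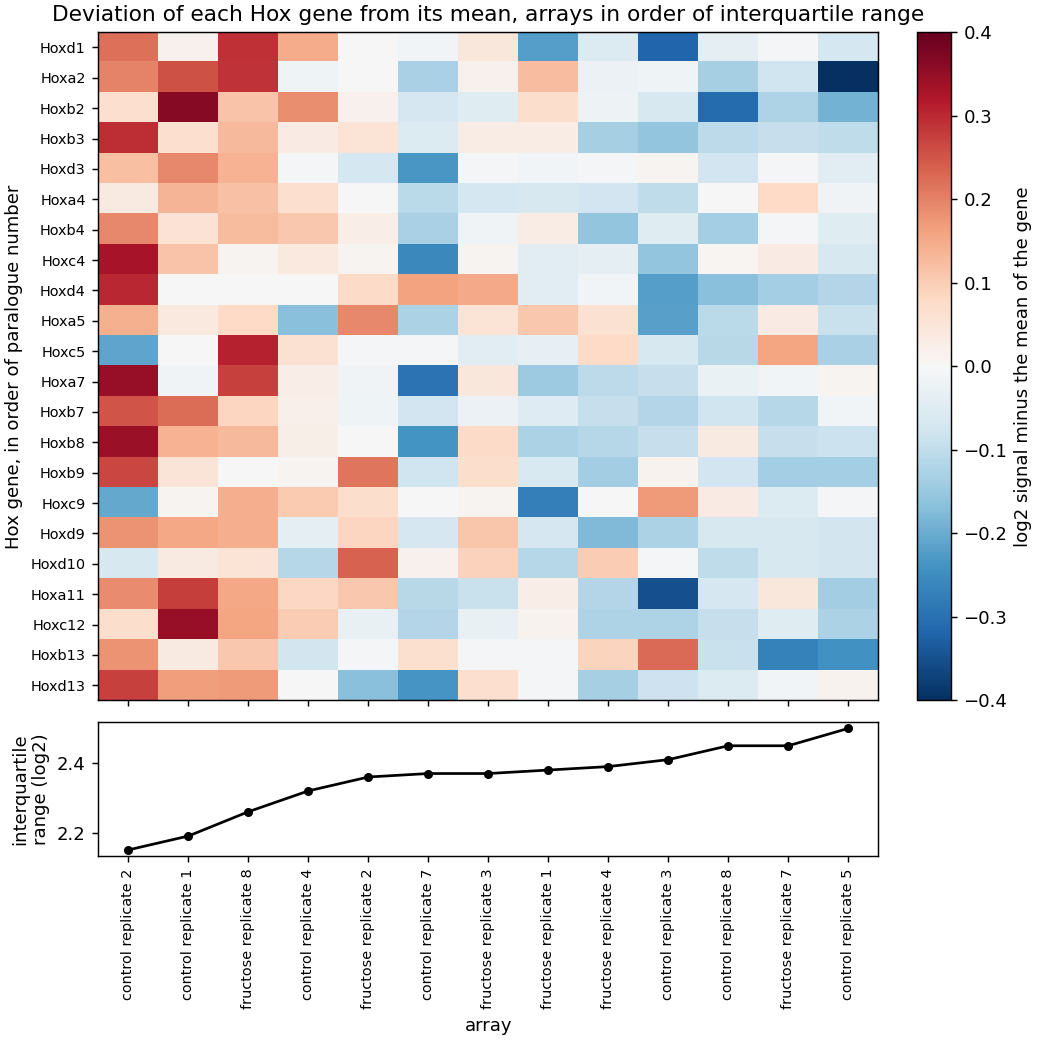
Deviation of the Hox genes from their own mean on each of the 13 arrays, in log2 units (colour), with the arrays in order of their interquartile range, which is drawn underneath. Fructose replicate 8 and control replicates 1 and 2 are high for 19 to 21 of 22 genes, and control replicates 5, 7 and 8 are low.

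These 3 arrays were also those with the narrowest spread of values. The correlation of signal with the interquartile range of the array was negative for 21 of 22 Hox genes (all but Hoxc9), with a median of -0.67, and for all 9 above the reference, with a median of -0.74. It was negative for 888 of 1093 receptor genes, with a median of -0.36, while over all 14506 genes the median was 0.10. After a linear trend with the interquartile range was removed, the median pairwise correlation of the 9 Hox genes was 0.42, against 0.053 for receptor genes, which were dimmer as a set. Without control replicates 1 and 2 it was 0.65, against 0.085.

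Promoter sequences are given for 2 Hox genes rich in CpG and for Hoxa2, the lowest in G and C of the 11 found. Highest of the 11 were Hoxd13 in G and C (74.8%) and Hoxa4 in CpG (32), which are not printed. Hoxa7 and Hoxd1, of different clusters, correlated at 0.72 and lay above the reference. Hoxa2 lay below it and varied with the other Hox genes about as they did, with a median r of 0.53 against 0.56 for each of them. Hoxd10, also below the reference, held 67.2% G and C with 21 CpG. The 250 bases before the start of each gene, from RefSeq's promoter table on GRCr8, are printed below, with each TAAT or its reverse complement ATTA, the core bound by homeodomains, in capitals. Hoxa7 lies at chr4:82648242-82648491 on the minus strand, Hoxd1 at chr3:80072791-80073040 on the plus strand and Hoxa2 at chr4:82595693-82595942 on the minus strand.
Hoxa7: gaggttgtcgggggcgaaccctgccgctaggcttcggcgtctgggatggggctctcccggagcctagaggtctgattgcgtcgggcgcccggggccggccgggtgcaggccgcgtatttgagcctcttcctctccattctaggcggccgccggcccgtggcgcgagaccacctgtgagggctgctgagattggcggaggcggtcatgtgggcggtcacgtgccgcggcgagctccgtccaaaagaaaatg
Hoxd1: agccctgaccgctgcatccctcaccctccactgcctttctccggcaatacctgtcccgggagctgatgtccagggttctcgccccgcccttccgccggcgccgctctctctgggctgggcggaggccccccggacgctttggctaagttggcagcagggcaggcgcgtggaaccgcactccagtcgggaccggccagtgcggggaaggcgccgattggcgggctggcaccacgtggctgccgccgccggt
Hoxa2: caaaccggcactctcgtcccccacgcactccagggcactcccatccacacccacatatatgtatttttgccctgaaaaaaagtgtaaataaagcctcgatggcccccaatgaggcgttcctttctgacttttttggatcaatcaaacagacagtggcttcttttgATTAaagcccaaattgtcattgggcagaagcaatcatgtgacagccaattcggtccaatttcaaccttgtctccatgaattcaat
The Hoxa7 stretch held 68.8% G and C with 28 CpG dinucleotides and that of Hoxd1 71.6% with 25, while that of Hoxa2 held 45.2% with 6. The capitals mark the only TAAT or ATTA in the 3 stretches, in Hoxa2. Of the 22 members, 11 were in the promoter table, and they held a median of 60.0% G and C (45.2 to 74.8) and 20 CpG (3 to 32). The same stretch over all 33469 promoters held a median of 51.2% and 5 CpG, and 9 of 11 Hox promoters exceeded that G and C content. TAAT, searched on both strands, occurred in 5 of 11 Hox promoters and 57.0% of all promoters. TGATNNAT, the pattern of joint Hox and Pbx binding, searched on both strands without removing overlaps with TAAT, occurred in 1 of 11 (Hoxa2) and 7.96% of all. A match is a description of letters only.

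Hoxb2 varied most among the genes above the reference (SD 0.17) and was set against markers of hindbrain and other brain regions. In the control arrays Hoxb2 was 7.27, 6.97, 6.84, 7.10, 6.72, 6.84 and 6.60 in replicates 1, 2, 3, 4, 5, 7 and 8. In the fructose arrays it was 6.98, 6.92, 6.86, 6.89, 6.79 and 7.02 in replicates 1, 2, 3, 4, 7 and 8. Control replicates 1 and 4 and fructose replicate 8 were highest, and control replicates 8 and 5 were lowest.

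Of 36 measured markers, 8 correlated with Hoxb2 past an adjusted p of 0.05 by a 2-sided permutation test (100000 resamples, Benjamini-Hochberg over the 36), all positively. Correlations of this size were common on these arrays, since 7.31% of the 14505 other genes (1060) had r of 0.70 or more with Hoxb2, the lowest r among the 8. Pax2, a transcription factor of hindbrain and spinal interneurons, had r 0.79 (permutation p = 0.00126, adjusted p = 0.0227) and rho 0.81 (p = 0.00127), and r was 0.76 without the arrays farthest from the Hoxb2 median. Slc6a4, the serotonin transporter of raphe neurons, had r 0.77 (permutation p = 0.00378, adjusted p = 0.0227) and rho 0.75 (p = 0.00474), and r was 0.63 without those arrays. Dbh, which makes noradrenaline, had r 0.75 (permutation p = 0.00278, adjusted p = 0.0227) and rho 0.75 (p = 0.00481), and r was 0.49 without them.

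Tbx20, a factor of hindbrain motor neurons, had r 0.78, Slc6a2, the noradrenaline transporter, 0.75, and Gata3, a factor of raphe and midbrain neurons, 0.75. Pou4f1, of thalamic habenula and midbrain neurons, and Cbln3, of cerebellar granule cells, each had r 0.70, with permutation adjusted p = 0.0349 and 0.0402. By rank correlation 9 of 36 passed. The mean signals of these 8 markers ran from 6.51 to 7.95, below the median of all genes (8.02). Tbx20 and Slc6a4 lay below the dim reference and the others above it. Their correlations with the interquartile range ran from -0.61 to -0.90.

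Hoxb2 itself had r -0.79 with the interquartile range (permutation p = 0.00132) and rho -0.84 (p = 0.00051), and r was -0.72 without its arrays farthest from the median. After the trend with the interquartile range was removed, 0 of 36 markers passed by the permutation test, with 2 at an unadjusted p under 0.05. Without control replicates 1 and 2, 0 passed, with 8 at an unadjusted p under 0.05. Without control replicate 1 alone 0 passed (10 unadjusted), without control replicate 5 alone 0 (13 unadjusted), and without control replicate 4 alone 5.

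Phox2a, the other measured member of the noradrenergic list and a factor that specifies these neurons, had r -0.08 (permutation adjusted p = 0.839). Of the other serotonergic markers, Lmx1b, a factor of raphe neurons, had r 0.66 (permutation adjusted p = 0.0528) and rho 0.77 (permutation adjusted p = 0.0247). Fev, the factor that specifies raphe neurons, had r 0.29 with Hoxb2 (permutation adjusted p = 0.424), and Tph2, the brain enzyme of serotonin synthesis, had 0.56 (permutation adjusted p = 0.139). The lowest correlation was that of Slc17a6 (r -0.52, permutation adjusted p = 0.193), and its r was -0.27 without the farthest arrays. Slc6a13, a transporter of the meninges, had r -0.47 (permutation adjusted p = 0.229), and 0.025 without those arrays. Glra1, a glycine receptor subunit, had r -0.42 (permutation adjusted p = 0.309), and 0.23 without them.

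Of the brainstem markers with wide ranges, Slc6a5 was high in arrays of low as well as high Hox signal, and Slc17a6 in arrays of low or middling Hox signal. Slc6a5, the glycine transporter of inhibitory neurons of the brainstem and spinal cord, was 8.60 in control replicate 5, 8.29 in control replicate 8 and 8.08 in fructose replicate 8, and 6.83 to 7.30 in the other arrays. Slc6a5 thus took 2 levels, which a pooled correlation mixes. Its r with Hoxb2 over the 13 arrays was -0.40 (permutation adjusted p = 0.309), and its rho was -0.05. In the arrays high for Slc6a5, Hoxb2 was 6.72, 6.60 and 7.02, which are 2 of the lowest values and 1 of the highest. The number of Hox genes above their own mean in those arrays was 2, 3 and 21 of 22. Slc17a6, the glutamate transporter of thalamus and brainstem, was 9.15 in control replicate 8, 8.04 in fructose replicate 4 and 7.83 in fructose replicate 3, against at most 6.82 elsewhere. In those arrays 3, 5 and 13 Hox genes were above their own mean, and in control replicates 1 and 2 and fructose replicate 8, high for Hox, Slc17a6 was 6.71, 6.57 and 6.39.

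**Figure D3:**
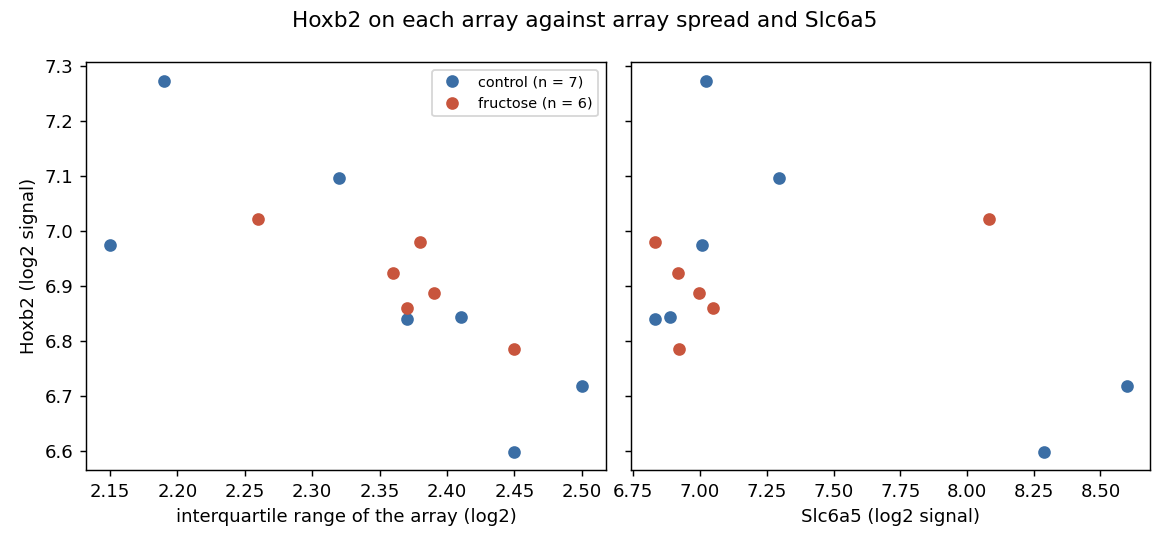
Hoxb2 log2 signal on each array against the interquartile range of the array (left) and against Slc6a5 (right), with 7 control and 6 fructose arrays. Hoxb2 falls as the interquartile range grows (r -0.79), while the 3 arrays with Slc6a5 over 8 hold both high and low Hoxb2.

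The 10 genes most like Hoxb2 among all 14505 others, by Pearson correlation over 13 arrays, were F2rl3 (0.94), Etv4 (0.94), Tg (0.93), Or13c7b (0.93), Or10ag59b (0.93), Gucy2f (0.93), Aqp7 (0.93), Col2a1 (0.92), Fer1l4 (0.92) and A1bg (0.92). They include 2 odorant receptors, thyroglobulin (Tg), a photoreceptor guanylate cyclase (Gucy2f) and cartilage collagen (Col2a1). Their correlations with the interquartile range ran from -0.70 to -0.91. The Hox gene most like Hoxb2 was Hoxc12 (0.86), at rank 75, and its paralogue Hoxa2 stood at rank 808.

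No Hox gene passed an adjusted p of 0.05 by limma in fructose against control, 0 of 22 where 0.0% of the 15633 probe sets tested passed. The smallest adjusted p was 0.9998 in limma. The fructose minus control difference ran from -0.07 for Hoxb7 to 0.16 for Hoxa5 on the log2 scale, 13 of 22 genes were higher in fructose, and the median was 0.0048 beside 0.0056 over all probe sets. By paralogue number 7 of 9, 3 of 5 and 3 of 8 genes were higher, with median differences of 0.0063, 0.014 and -0.017. For 19 of 22 genes the 95% interval of the difference lay within a 1.2-fold change either way, the exceptions being Hoxa2, Hoxa5 and Hoxc5. These intervals concern array signal. With 13 of the 22 genes not above the dim reference, they do not bound a change in RNA. The groups overlapped for all 22, where 0.0384% of probe sets had groups that did not.

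By limma, 2 of 22 Hox genes had an unadjusted p under 0.05, both higher in fructose, where 2.23% of all probe sets did, 1.33% on the higher side. Hoxa5, which patterns the neck and acts in lung and brainstem development, was 5.88, 5.98, 5.62, 5.67, 5.75, 5.71 and 5.73 in control replicates 1, 2, 3, 4, 5, 7 and 8. It was 5.95, 6.03, 5.90, 5.90, 5.87 and 5.92 in fructose replicates 1, 2, 3, 4, 7 and 8. All 6 fructose arrays exceeded the control mean, and control replicates 1 and 2 lay within the fructose range. The means were 5.77 ± 0.12 (SD, n = 7) and 5.93 ± 0.057 (SD, n = 6), a difference of 0.16 ± 0.056 (SE; 95% interval 0.043 to 0.28; unadjusted limma p = 0.011, adjusted p = 0.9998; exact 2-sided permutation p = 0.0152 over 1716 splits). Hoxa5 was a dim gene, with 65.4% of receptor genes below it.

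Hoxc5, a trunk gene of cluster C, was 5.83, 5.62, 5.77, 5.89, 5.70, 5.82 and 5.72 in the control arrays in the same order. It was 5.80, 5.82, 5.78, 5.91, 5.99 and 6.14 in the fructose arrays. Fructose replicates 8, 7 and 4 were highest, above every control array, and the rest lay among the controls. The difference was 0.14 ± 0.063 (SE; unadjusted limma p = 0.0378, adjusted p = 0.9998; exact permutation p = 0.0431), and 65.0% of receptor genes lay below its level.

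On the lower side, Hoxb7 was 7.34, 7.37, 7.002, 7.14, 7.11, 7.04 and 7.04 in the control arrays and 7.07, 7.10, 7.10, 7.03, 7.01 and 7.20 in the fructose arrays. Its highest values were those of control replicates 1 and 2, and the difference was -0.07 ± 0.065 (SE; exact permutation p = 0.35; limma adjusted p = 0.9998). Hoxb8 was 6.82, 7.02, 6.59, 6.70, 6.59, 6.44 and 6.72 in control and 6.55, 6.68, 6.75, 6.57, 6.59 and 6.81 in fructose, a difference of -0.04 ± 0.081 (SE; exact permutation p = 0.673; limma adjusted p = 0.9998). Control replicate 2 was again highest.

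**Figure D4:**
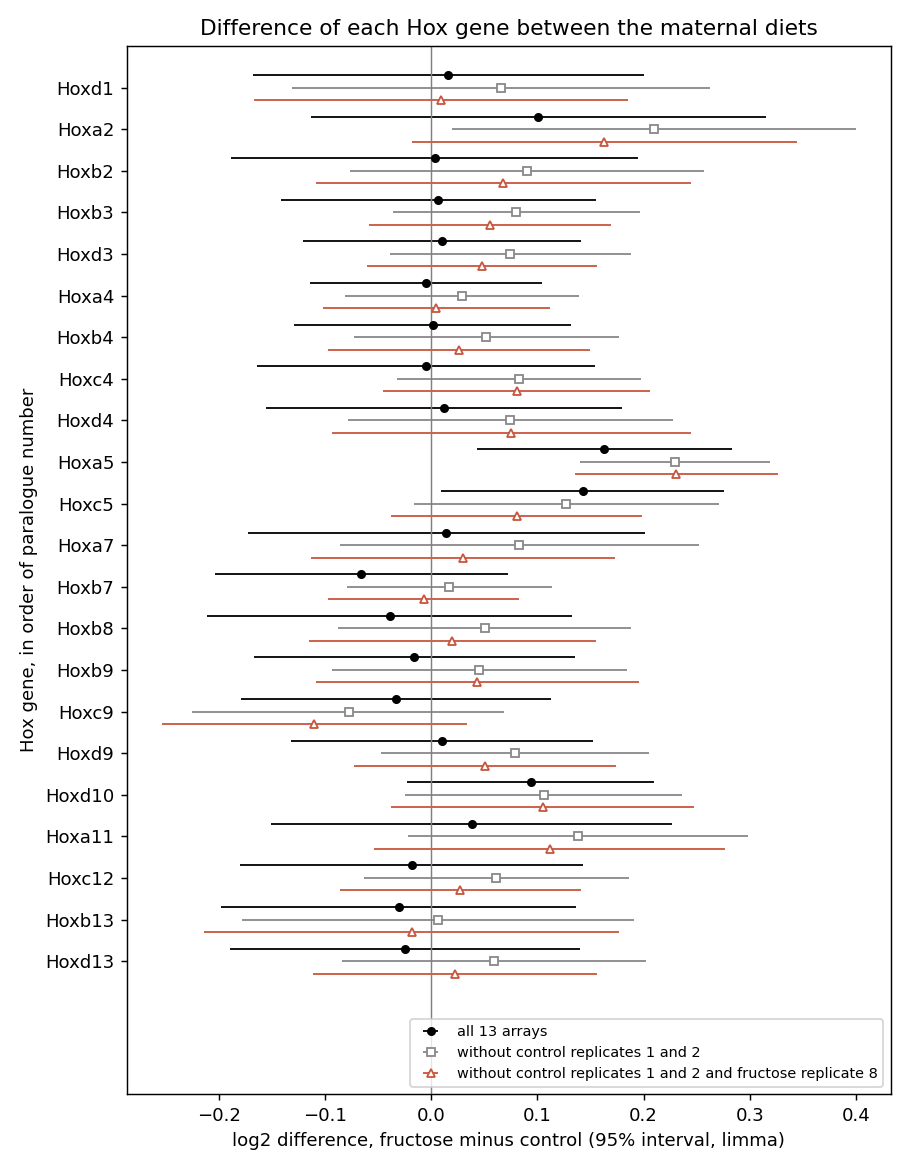
Fructose minus control difference of each of the 22 Hox genes in log2 units with its 95% interval from limma, over all 13 arrays, without control replicates 1 and 2, and without these and fructose replicate 8. Only the intervals of Hoxa5 and Hoxc5 leave out 0 over all arrays, and 13, 21 and 19 of 22 differences are above 0 in the 3 sets of arrays, where leaving out control arrays that are high for most Hox genes itself moves the differences up.

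The comparison was repeated without control replicates 1 and 2, the arrays of narrowest spread (5 control and 6 fructose arrays). Both are also high for most Hox genes while fructose replicate 8, also high, stayed in, so a shift of the Hox genes towards fructose follows from the choice of arrays. Then 21 of 22 Hox genes were higher in fructose (all but Hoxc9), with a median difference of 0.075, beside 51.4% of all probe sets higher and a median of 0.0022. By limma 0 of 22 passed an adjusted p of 0.05, where 0.0% of probe sets did, and 2 (Hoxa5 and Hoxa2) had an unadjusted p under 0.05, both higher in fructose, where 4.59% did, 3.05% on the higher side. Without fructose replicate 8 as well (5 and 5 arrays, a setting chosen after seeing the data), 19 of 22 were higher, with a median of 0.045, beside 52.2% and 0.0034 over all probe sets.

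That set leaves out 2 high control arrays and 1 high fructose array, so the choice of arrays bears on its counts too. In it 0 of 22 passed an adjusted p of 0.05 by limma, where 0.0% of probe sets did, and only Hoxa5 had an unadjusted p under 0.05, where 3.91% did, 2.48% on the higher side. Hoxa5 was higher in fructose by 0.23 ± 0.041 (SE; limma adjusted p = 0.617) in the first subset and by 0.23 ± 0.044 (SE; limma adjusted p = 0.9994) in the second. Control replicates 1 and 2, left out of both subsets, were the only control arrays within the fructose range of Hoxa5. The lack of overlap of its groups in both subsets therefore follows from the choice of arrays. Of all probe sets, 0.249% and 0.397% were higher in fructose without overlap. Hoxa2 differed by 0.21 ± 0.088 (SE; limma adjusted p = 0.9525) in the first and by 0.16 ± 0.083 (SE; limma adjusted p = 0.9994) in the second.

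Genes that work with or upstream of Hox proteins were described as lists beside them. Of 9 cofactors of the TALE class, which bind DNA together with Hox proteins, 7 were measured. By limma 0 of 7 passed an adjusted p of 0.05 in either direction and 0 had an unadjusted p under 0.05. Of these, 6 were higher in fructose, with a median difference of 0.021, and Meis2, a cofactor of forebrain and hindbrain neurons, differed by 0.14 and Pbx2 by 0.04.

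Of 15 upstream regulators, which include retinoic acid receptors and the enzymes that make and clear retinoic acid, 11 were measured. By limma 0 of 11 passed and 0 had an unadjusted p under 0.05. The median difference was -0.04, and the retinoic acid receptors Rarg and Rxrb differed by -0.09 and -0.08. Of 18 Polycomb and Trithorax proteins, which keep Hox clusters silent or active, 14 were measured. By limma 0 of 14 passed and 0 had an unadjusted p under 0.05, with a median difference of -0.0016. Eed, a Polycomb subunit, differed by -0.08 and Pcgf2, another, by 0.06.

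Among the marker lists, of 3 to 8 measured genes each, 0 genes passed in any list by limma, where 0.0% of probe sets did. An unadjusted limma p under 0.05 was found for 2 genes over all these lists, where 2.23% of all probe sets had one. These were Emx2, a cortex gene, higher in fructose by 0.13, and Fat2, a cerebellum gene, lower with a difference of -0.10. The mean signal of the serotonergic markers ran from 7.09 to 7.42 in control and 7.17 to 7.35 in fructose. It ran from 7.11 to 7.39 and 7.10 to 7.30 for the noradrenergic list, and from 6.80 to 7.21 and 6.83 to 7.16 for the glycinergic and other hindbrain list. The ranges of the diets overlapped in each of these hindbrain lists, as in the cholinergic (6.31 to 6.99 and 6.28 to 6.53), thalamus and midbrain (7.02 to 7.67 and 7.01 to 7.39), cortex and hippocampus (8.27 to 9.25 and 8.61 to 9.27) and cerebellum (6.84 to 7.01 and 6.81 to 7.03) lists. They also overlapped in the lists of meninges (7.48 to 8.61 and 7.64 to 8.76), endothelium (8.35 to 8.60 and 8.37 to 8.69), blood cells (6.82 to 7.24 and 6.76 to 7.22) and skeletal muscle (7.12 to 7.38 and 7.18 to 7.28).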

How the data were processed

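The analysis used 13 arrays of rat brain without cerebellum (7 control, 6 fructose), labelled from 100 ng of RNA. The deposited values are log2 signals per probe set, made by the authors with RMA, which corrects background, equalises distributions and summarises probes, in R 3.0.1 per the submitters' processing notes. The array's annotation build is not given in the sources used here. Of 29214 probe sets, 15310 had 1 gene symbol, 323 several and 13581 none in the platform annotation. All 22 Hox genes matched the RefSeq table by Entrez identifier, and 0 were in probe sets with several genes.

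Fructose minus control was tested with limma 3.58.1 (lmFit, eBayes) in R 4.3.3 over the 15633 probe sets with a gene, with Benjamini-Hochberg adjustment over all of them and a threshold of 0.05. Exact permutation tests and correlations used Python 3.11.15 and scipy 1.17.1. The scripts were tested on simulated data. The number of arrays limits the precision.

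The members and lists were chosen with earlier results of these data known. The dim reference took symbols beginning Or and a digit, Tas2r or Taar; symbols beginning Vmn matched 0 rat genes, and older receptor names were added as an alternative after seeing the data, as were settings with the interquartile range and without its 3 narrowest arrays. Values are given for Hox genes above the reference and the 2 with the smallest p in each direction, for the genes of each list with the smallest p, for the highest and lowest marker correlations and for the 10 genes most like Hoxb2. Replicate numbers are shared by the groups, but same-numbered arrays did not deviate together. Alternatives included other normalizations, array weights, filters and leaving out arrays.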

Additional observations from a re-analysis of the deposited data

Results flagged for a closer look

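In each group the array farthest out was compared with the next by Dixon's ratio for the 22 Hox genes and 26 markers and list genes named in the text. This was done in 96 groups, and 10 exceeded the 95% critical value. Chance flags about 5% of independent groups. The 26 other genes were named partly for their values in these data, and the groups share the same arrays. The count of 10 is therefore not set against that share. Of 44 Hox groups, 2 exceeded the critical value, about the 5% that chance flags. Hoxd3 was highest in fructose replicate 8, at 6.885, where fructose replicates 3, 4 and 7 all came next at 6.736. Hoxb13, a gene of the tail end of the axis, was lowest in fructose replicate 7, at 6.114. Next were fructose replicates 1, 2 and 3, all at 6.374. Both genes lay below the dim reference.

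The other 8 were genes outside the Hox clusters. Gata3 was highest in fructose replicate 8 (7.124, next 6.983), as were Slc6a5 (8.084, next 7.05), Tph2 (6.65, next 6.454) and the Polycomb gene Pcgf2 (8.994, next 8.793). Cbln3 was lowest in fructose replicate 7 (7.49, next 7.688), and the cofactor Meis1 was highest in fructose replicate 3 (7.75, next 7.332). Glra1 was highest in control replicate 8 (7.615, next 6.707), as was Slc17a6 (9.149, next 6.819). In control replicate 8 only 3 of 22 Hox genes were above their own mean, and in fructose replicate 8 it was 21 of 22.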

How the results depend on the processing

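By limma 0 Hox genes passed an adjusted p of 0.05 in all 24 alternatives (smallest adjusted p 0.617), with 0 to 3 at an unadjusted p under 0.05. With the replicate number as a block, which the data do not bear out as a pairing (same-numbered arrays correlated at -0.34 to 0.19, 1 of 6 pairs over 0.1, 0 closest to its own number), 0 passed. The number of Hox genes above the reference, 9, became 3 at the 99th percentile, 14 at the 90th and 0 against the median of all genes. The median pairwise correlation, 0.67, was 0.53 after quantile normalization, 0.50 after cyclic loess and 0.42 with the trend in interquartile range removed, and 0.62 to 0.71 leaving out 1 array. The number of markers that passed with Hoxb2, 8, was 0 after quantile normalization (5 unadjusted), 0 after cyclic loess (4 unadjusted), 0 without control replicates 1 and 2, 0 with the trend removed, and 0 to 9 leaving out 1 array. The cause was not tested.

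Hoxa5 (0.14 to 0.23) and Hoxc5 (0.07 to 0.17) stayed higher in fructose in all 23 alternatives that held them. Leaving out the 30% dimmest probe sets removed both genes. For Hoxc5 the unadjusted limma p was under 0.05 in some alternatives only. It was 0.23 with array weights and 0.104 without fructose replicate 8. Differences near 0 turned sign. Hoxa4 was 0.0008 after centring, 0.0078 after quantile normalization, 0.0040 after loess, 0.029 without control replicates 1 and 2 and 0.0068 with the interquartile range as covariate. Without the 3 arrays of narrowest spread Hoxa4 was 0.0049, Hoxb8 0.02 and Hoxd13 0.022. Array weights gave -0.02 for Hoxb2 and -0.031 for Hoxd1. With the replicate block Hoxb2 was -0.028, Hoxb3 -0.01, Hoxb4 -0.0068 and Hoxd9 -0.0015. Hoxb4 was -0.00041 after quantile normalization. Without control replicates 1 and 2 Hoxb7 was 0.017, Hoxb8 0.05 and Hoxd13 0.059, and Hoxd13 was 0.0027 with the covariate. Leaving out 1 array gave -0.029 to 0.017 for Hoxa4, -0.039 to 0.073 for Hoxa7, -0.048 to 0.064 for Hoxb2, -0.019 to 0.056 for Hoxb3, -0.024 to 0.034 for Hoxb4, -0.082 to 0.015 for Hoxb8, -0.041 to 0.062 for Hoxd1, -0.066 to 0.019 for Hoxd13 and -0.018 to 0.046 for Hoxd9. Signal near the dim reference limits all of these values.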

Other observations

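The cofactor Pbx3 varied between arrays with an SD of 0.59, where the Hox genes had SDs of 0.083 to 0.20. Pbx3 was 9.60 in control replicate 8, 9.13 in fructose replicate 4 and 8.84 in fructose replicate 3, and 7.53 to 8.47 in the other arrays. These are the 3 arrays with high Slc17a6. Meis1 was highest in control replicate 8 (7.91) and fructose replicate 3 (7.75), and was 7.20 in fructose replicate 4. Of the 22 Hox genes, 3, 5 and 13 were above their own mean in control replicate 8, fructose replicate 4 and fructose replicate 3.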
